A study of Mus musculus with 11 samples.

Results

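The integrated stress response is a shared reaction to amino acid shortage, unfolded protein, viral RNA and lack of haem, and the transcription factor ATF4 carries it to the genes. A listed set of 43 ATF4 pathway genes, all of them among the 53801 gene identifiers counted, was followed in neural progenitor cell (NPC) cultures with and without Smg6, and the list was set by pathway membership, with no threshold on measured values. The list was chosen with earlier results of these data known, so its counts beside those of all genes are descriptions. It held 7 regulators, 11 genes of amino acid and one-carbon synthesis, 8 amino acid transporters, 8 effectors and feedback genes and 9 genes of tRNA charging and export. SMG6 is an endonuclease of nonsense-mediated mRNA decay (NMD), which degrades mRNAs that carry a stop codon in a context read as premature.

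RNA was sequenced from 11 cultures of NPCs taken from brains of 8 embryos at E13.5, on a C57BL/6 background mixed with 129SV. Every culture, controls included, was Smg6 Flox/Flox. The Ctr group (n = 3, embryos SMH_128, SMH_132 and SMH_133) was RosaCreER tg/+ and untreated. Ctr + 4-OHT (n = 4, embryos SMH_125, SMH_126, SMH_129 and SMH_131) was RosaCreER +/+, so it had no Cre, and received 1 µM 4-hydroxytamoxifen (4-OHT) for 3 days. Smg6-iKO (n = 4, embryos SMH_127, SMH_128, SMH_132 and SMH_133) was RosaCreER tg/+ and received the same 4-OHT, which activates the Cre recombinase made from the ubiquitous Rosa locus and deletes the floxed part of Smg6. RNA was taken on day 6, counted from the first dose. Smg6-iKO therefore differed from Ctr by 4-OHT and the deletion, and from Ctr + 4-OHT by the Cre transgene and the deletion. The groups Ctr + 4-OHT and Ctr differed by 4-OHT and by Cre genotype at once, and these cannot be told apart. Each pair of comparisons shares one group of libraries.

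Kinases that sense these stresses phosphorylate the translation factor eIF2alpha, which lowers translation of most mRNAs while short upstream open reading frames let the Atf4 mRNA be translated more. ATF4 then binds with C/EBP partners to a composite promoter element and turns on genes that make, import and charge amino acids, together with genes such as Ddit3, Trib3 and Ppp1r15a that shape or end the response. The mRNAs of Atf4, Atf3 and Ddit3 are also known as substrates of NMD. In NPCs the pathway is best known for its link between amino acid supply, protein synthesis and proliferation. Neither eIF2alpha phosphorylation nor ATF4 protein was measured here, and all values below are mRNA.

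The composite element was looked for in RefSeq promoter windows on GRCm38.p6 that reach from 250 bases before to 50 bases after a gene's start. It was searched as TGATGNAA and its reverse complement TTNCATCA, and in the stricter form TGATGCAA, which is contained in the first. A window was given for 35 of the 43 genes, and 14 of these 35 genes (40.0%) held TGATGNAA on either strand, against 4.51% of all 27025 genes with a window. The stricter form was found in 10 of the 35 (28.6%) and in 1.03% of all genes. The 6 windows below belong to genes with the element upstream of the start that were higher in Smg6-iKO than in Ctr, with 12 bases on each side and the element in capitals, and they were shown for their place in a regulator, 3 enzymes of synthesis, a transporter and an effector. The letters in capitals are alike because the search fixed them.
Atf3, chr1:191183424-191183455, minus strand: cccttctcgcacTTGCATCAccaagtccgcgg
Asns, chr6:7693213-7693244, minus strand: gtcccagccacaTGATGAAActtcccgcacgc
Pycr1, chr11:120643832-120643863, minus strand: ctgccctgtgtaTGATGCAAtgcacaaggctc
Pck2, chr14:55540151-55540182, plus strand: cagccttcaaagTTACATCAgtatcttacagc
Slc7a11, chr3:50443641-50443691, minus strand: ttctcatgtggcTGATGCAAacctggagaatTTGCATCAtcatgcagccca
Chac1, chr2:119351037-119351068, plus strand: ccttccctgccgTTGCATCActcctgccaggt
Each sequence runs 5′ to 3′ along its gene, and the first base of the element lay at -110 from the start in Atf3, -23 in Asns, -103 in both Pycr1 and Pck2, -66 in Slc7a11 and -193 in Chac1. Slc7a11 held 2 elements that face each other. The strict letters were present in Atf3, Pycr1, Slc7a11 and Chac1, while Asns and Pck2 held another base at the open position. Trib3, Nupr1, Herpud1, Aars, Gars, Slc1a4, Tars and Vldlr also held the element. A match describes letters and is not a measured binding site. Windows for Aldh1l2, Cth, Slc7a5, Slc7a3, Slc1a5, Wars, Nars and Cars were not used here.

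Libraries held 26418249 to 33756875 counted reads. The 43 genes took 0.624% to 0.676% of the reads in Ctr, 0.665% to 0.769% in Ctr + 4-OHT and 0.705% to 0.768% in Smg6-iKO. Levels are given as CPM, counts scaled to a common library size after TMM normalization, and the libraries are listed in the order of embryos given above. Smg6 itself stood at 69.4, 79.4 and 74.3 CPM in Ctr, 66.5, 71.95, 72.3 and 66.6 in Ctr + 4-OHT, and 62.5, 62.3, 71.9 and 67.5 in Smg6-iKO. The 3 groups overlapped, and set beside Ctr + 4-OHT, Smg6-iKO differed by -0.059 on the log2 scale (adjusted p = 0.703). Against Ctr it differed by -0.17 (adjusted p = 0.148) and, with embryos blocked, by -0.15 (adjusted p = 0.0430), being lower in the Smg6-iKO culture of each of the 3 embryos that gave both. These counts cover the whole gene and do not show the loss of its floxed part. Esr1, whose ligand-binding part has a counterpart in the CreER transgene, read 3.89 to 4.71 CPM in the tg/+ libraries and 0.0323 to 0.283 CPM in the +/+ libraries, which matched the labelled genotypes. Gas5, a known NMD substrate, stood at 681 to 786 CPM in Smg6-iKO and 255 to 342 CPM in the controls. All 12 NPC markers of a fixed list had 10 or more counts in every library, while summed markers of microglia were at 1.23 to 3.88 CPM, of endothelium at 4.38 to 7.35 CPM, and of erythroid cells at 0 to 0.128 CPM. In such bulk RNA, fewer cells of a type and less RNA per cell cannot be told apart.

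Per length, in TPM, which also divide by exonic length, averaged over the 11 libraries, the genes spanned a range from Ddit4 (1043 TPM), a brake on mTORC1, and Atf4 (428 TPM) down to Atf3 (6.86 TPM) and the cystine importer Slc7a11 (5.07 TPM). Nars (329 TPM), Asns (301 TPM) and Psat1 (283 TPM) followed Atf4. Among regulators, Atf5 and Ddit3 lay close together at 87.9 and 87.7 TPM, with ranges over libraries of 55.3 to 111 and 58.2 to 109 TPM that overlap. All 43 genes passed the filter on low counts in all 3 comparisons.

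Against Ctr + 4-OHT, Smg6-iKO had 1 of the 43 genes significantly higher, Atf4 itself, and none lower. The background was 0.757% of 17558 genes called higher. Of the 43 genes, 23 had a log2 fold change above 0, against 52.8% of all genes, with a median of 0.0086 against 0.012 over all genes tested. An unadjusted p under 0.05 was found for 8 of the 43 and for 16.7% of all genes. Atf4, Atf5 and Trib3 were the 3 genes for which every Smg6-iKO library lay above every Ctr + 4-OHT library, a separation shown in that direction by 5.03% of genes. DESeq2's Wald test called 2 of the 43, Atf4 and Atf5, both on the groups compared and on all libraries, where it called 2.71% and 3.06% of all genes higher.

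Against Ctr, 19 of the 43 genes were higher in Smg6-iKO and 1, Ddit4, was lower, where 4.27% of 17974 genes were called higher and 4.98% lower. The log2 fold change was above 0 for 37 of the 43, against 51.0% of all genes, and its median was 0.25 against 0.0055 over all genes tested. At an unadjusted p under 0.05 there were 27 of the 43, against 26.9% of all genes. For 23 genes every Smg6-iKO library lay above every Ctr library, against 11.4% of genes, and for Ddit4 every one lay below. With the embryo as a block, since 3 embryos gave both a Ctr and a Smg6-iKO culture, 28 were higher and 1 lower, where the background was 10.3% higher and 11.2% lower. Single libraries moved the count of 20 calls made without the block. It was 9 without Ctr embryo SMH_132, 11 without Ctr embryo SMH_128 and 11 without Smg6-iKO embryo SMH_133, and the median fell from 0.25 to 0.17 without Ctr embryo SMH_132. The 8 genes Atf4, Atf5, Trib3, Aldh1l2, Pck2, Slc7a1, Slc7a3 and Slc1a5 were called whichever library was left out, and Ppp1r15a in none of these fits. A single edgeR fit over all libraries called 15 members, against 4.39% of all genes, and Asns, Psph, Slc6a9, Slc7a5 and Ppp1r15a were not among them.

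Ctr + 4-OHT against Ctr gave 0 of 43 genes at an adjusted p under 0.05 by edgeR, where 0.221% of 17665 genes were called in either direction. An unadjusted p under 0.05 was found for 25 of the 43 and for 8.28% of all genes. DESeq2's Wald test called 6 on the groups compared and 9 on all libraries, each of them higher, against 0.245% and 0.423% of all genes. Both fits called Asns, Slc7a3, Slc1a5, Trib3 and Gars. The first also called Slc7a11, and the second Psph, Pck2, Slc6a9 and Xpot. Without a filter on low counts edgeR called 7, against 0.165% of all genes. By the edgeR test the log2 fold change was above 0 for 37 of the 43 genes, against 51.2% of all genes, and its median was 0.19, against 0.0045 over all genes. In 18 genes every Ctr + 4-OHT library lay above every Ctr library, against 3.8% of genes. For the genes of synthesis all 11, and for the transporters all 8, had a log2 fold change above 0, although none passed the edgeR test.

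**Figure D1:**
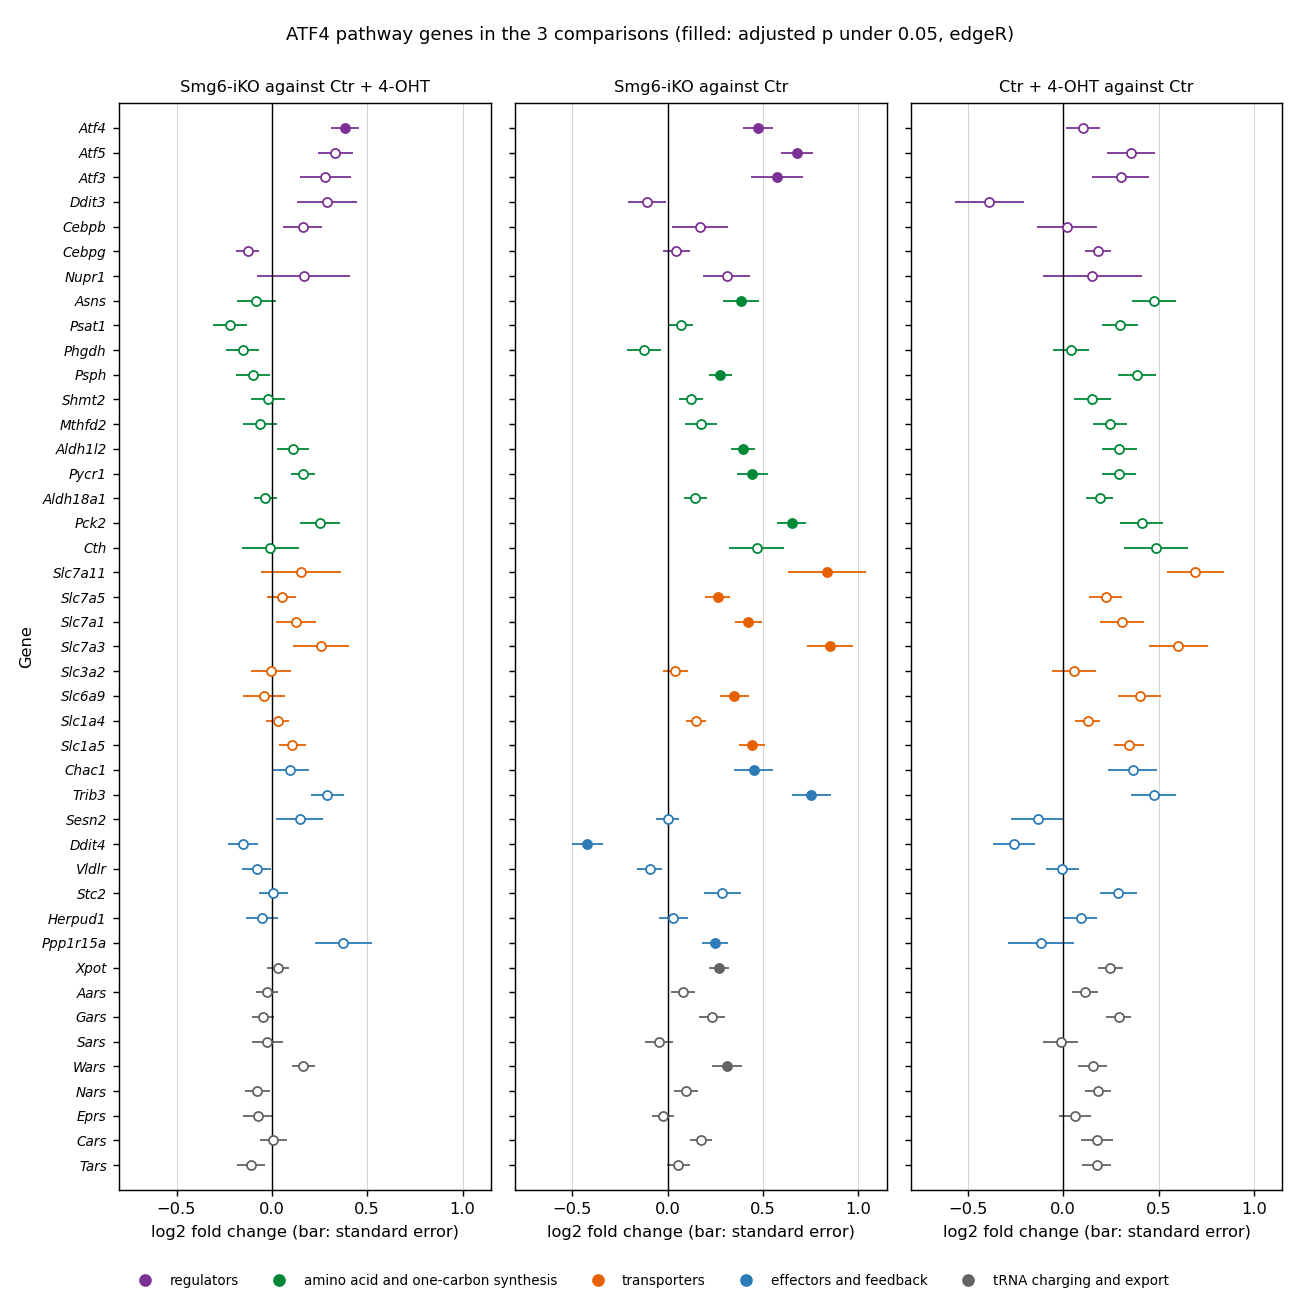
Log2 fold change (x axis, bar for the standard error) of each of the 43 genes (y axis, coloured by function) in the 3 comparisons, with filled points for genes at an adjusted p under 0.05. Atf4 is the only filled point of Smg6-iKO against Ctr + 4-OHT, 20 points are filled against Ctr, and none is filled for Ctr + 4-OHT against Ctr although 37 of its points lie above 0.

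Among the regulators, Atf4, Atf5 and Atf3 rose in Smg6-iKO against Ctr, and Atf4 also against Ctr + 4-OHT. Atf4 (chr15:80255184-80257541 on GRCm38, plus strand), the master factor, stood at 307, 253 and 279 CPM in Ctr, 297, 322, 314 and 268 in Ctr + 4-OHT, and 399, 418, 349 and 389 in Smg6-iKO. The lowest Smg6-iKO library lay above the highest library of both control groups, and the control groups overlapped. Its log2 fold change was 0.38 (SE 0.075, adjusted p = 0.0407) against Ctr + 4-OHT and 0.48 (SE 0.080, adjusted p = 0.00727) against Ctr, by edgeR's quasi-likelihood test with Benjamini-Hochberg adjustment. Ctr + 4-OHT against Ctr gave 0.10 (SE 0.088, adjusted p = 0.779). Against Ctr + 4-OHT the call was lost whenever any library was left out, at log2 fold changes of 0.33 to 0.42 and adjusted p of 0.053 to 0.136, and after a correction for gene length (0.37, adjusted p = 0.0520).

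Atf5, a close relative of ATF4 that is also translated through upstream open reading frames, stood at 47.2, 36.3 and 45.3 CPM in Ctr, 49.5, 64.7, 57.9 and 47.8 in Ctr + 4-OHT, and 69.4, 67.7, 69.8 and 68.2 in Smg6-iKO. The Smg6-iKO libraries were tightly grouped above all others, and the Ctr + 4-OHT libraries lay between, above every Ctr library. In log2 terms the change was 0.68 (SE 0.084, adjusted p = 0.00216) against Ctr and 0.33 (SE 0.091, adjusted p = 0.110) against Ctr + 4-OHT, and 0.36 (SE 0.13, adjusted p = 0.478) for Ctr + 4-OHT against Ctr. Atf3, an inducible factor downstream of ATF4, was low, at 3.47, 3.74 and 4.17 CPM in Ctr, 4.73, 4.63, 5.39 and 3.92 in Ctr + 4-OHT, and 5.86, 6.34, 4.71 and 5.63 in Smg6-iKO. Smg6-iKO lay above Ctr without overlap but overlapped with Ctr + 4-OHT, and the log2 fold change was 0.57 (SE 0.14, adjusted p = 0.0285) against Ctr and 0.28 (SE 0.13, adjusted p = 0.319) against Ctr + 4-OHT.

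Ddit3, which encodes CHOP, the factor tied to prolonged stress and cell death, was not called in any comparison. It stood at 64.2, 48.7 and 52.5 CPM in Ctr, 36.8, 51.8, 49.9 and 30.1 in Ctr + 4-OHT, and 48.2, 58.05, 51.2 and 47.4 in Smg6-iKO. All groups overlapped, the highest value was the Ctr library of embryo SMH_128, and the lowest were Ctr + 4-OHT embryos SMH_131 and SMH_125. The fitted log2 fold change was -0.11 (SE 0.10, adjusted p = 0.536) against Ctr, 0.29 (SE 0.16, adjusted p = 0.384) against Ctr + 4-OHT and -0.39 (SE 0.18, adjusted p = 0.625) for Ctr + 4-OHT against Ctr, and without Ctr embryo SMH_128 the first turned to 0.019 (adjusted p = 0.932). The counts leave out reads in 105 of its 1713 exonic bases (6.13%), which a second identifier shares.

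Nupr1, a small chromatin protein induced by stress, stood at 11.2, 10.3 and 10.3 CPM in Ctr, 8.34, 14.4, 16.9 and 7.45 in Ctr + 4-OHT, and 10.9, 15.9, 13.7 and 12.2 in Smg6-iKO. The groups overlapped, and Nupr1 was called with the embryo block (log2 fold change 0.39, SE 0.087, adjusted p = 0.00404) and not without it (0.31, SE 0.12, adjusted p = 0.136). The C/EBP partners were not called in any comparison. Cebpb ranged from 5.50 to 9.20 CPM and Cebpg from 118 to 148 CPM over the 11 libraries, with log2 fold changes of 0.17 and 0.046 against Ctr. In all, 3 of the 7 regulators rose against Ctr and 1 against Ctr + 4-OHT, where 6 of the 7 had a log2 fold change above 0 and the median was 0.28. Of all genes, 4.27% were called higher in the first comparison and 0.757% in the second.

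**Figure D2:**
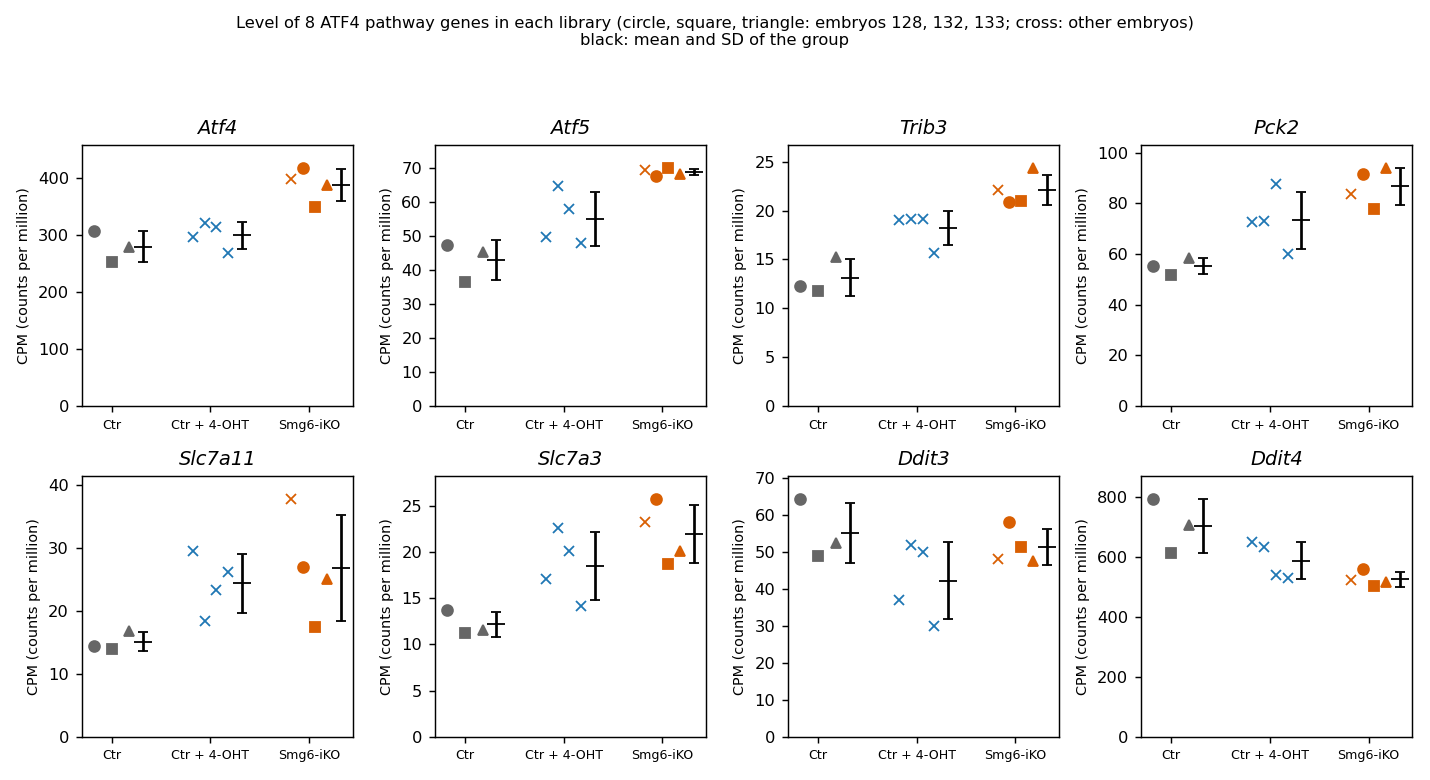
CPM (y axis) of 8 genes in each library by group (x axis), with the mean and SD of the group in black and one symbol each for embryos SMH_128, SMH_132 and SMH_133. Smg6-iKO lies above both control groups in Atf4, Atf5 and Trib3, overlaps with Ctr + 4-OHT in Pck2, Slc7a11 and Slc7a3, overlaps with both in Ddit3, and lies below Ctr in Ddit4.

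Of the 11 genes of amino acid and one-carbon synthesis, 5 rose in Smg6-iKO against Ctr (Asns, Psph, Aldh1l2, Pycr1 and Pck2), 9 with the embryo block, and none passed against Ctr + 4-OHT, where 8 of the 11 had a log2 fold change below 0 and the median was -0.035. The shares of all genes called higher were 4.27% against Ctr, 10.3% with the block and 0.757% against Ctr + 4-OHT. Asns, which makes asparagine and is a textbook ATF4 target, stood at 239, 190.1 and 210.0 CPM in Ctr, 285, 319, 336 and 245 in Ctr + 4-OHT, and 275, 317, 249 and 272 in Smg6-iKO. Both groups given 4-OHT lay above Ctr and overlapped with each other, with the highest level in Ctr + 4-OHT embryo SMH_129. Its log2 fold change was 0.39 (SE 0.093, adjusted p = 0.0301) against Ctr, -0.081 (SE 0.10, adjusted p = 0.748) against Ctr + 4-OHT and 0.48 (SE 0.12, adjusted p = 0.257) for Ctr + 4-OHT against Ctr.

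Pck2, the mitochondrial enzyme that makes phosphoenolpyruvate, had the largest rise of this group. Its level was 55.5, 51.9 and 58.3 CPM in Ctr, 72.5, 73.03, 87.8 and 60.1 in Ctr + 4-OHT, and 83.9, 91.6, 77.7 and 93.8 in Smg6-iKO. Smg6-iKO and Ctr + 4-OHT both lay above Ctr and overlapped through Ctr + 4-OHT embryo SMH_129. This gave a log2 fold change of 0.65 (SE 0.076, adjusted p = 0.00158) against Ctr, 0.25 (SE 0.11, adjusted p = 0.266) against Ctr + 4-OHT and 0.41 (SE 0.11, adjusted p = 0.351) for Ctr + 4-OHT against Ctr. Pycr1, an enzyme of proline synthesis, stood at 22.1, 23.4 and 27.2 CPM in Ctr, 31.2, 28.5, 28.2 and 30.7 in Ctr + 4-OHT, and 32.9, 32.7, 30.9 and 35.3 in Smg6-iKO. It too was higher in every library given 4-OHT than in any Ctr library, and its log2 fold change was 0.44 (SE 0.08, adjusted p = 0.00968) against Ctr and 0.16 (SE 0.063, adjusted p = 0.224) against Ctr + 4-OHT. Aldh18a1, which starts proline synthesis, stood at 283, 257 and 279 CPM in Ctr, 307, 315, 334 and 289.9 in Ctr + 4-OHT, and 290.1, 319, 289 and 309 in Smg6-iKO. The lowest library given 4-OHT lay above the highest Ctr library, but the steps were small, and Aldh18a1 was called with the embryo block (0.16, SE 0.048, adjusted p = 0.0198) and not without it.

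In the serine pathway, Psph was called against Ctr, and Psat1 and Phgdh were not. The difference between these genes was not tested. Psph, which releases serine in its last step, stood at 42.1, 43.3 and 39.3 CPM in Ctr, 49.5, 51.2, 65.00 and 52.01 in Ctr + 4-OHT, and 51.5, 53.1, 47.8 and 49.3 in Smg6-iKO. Smg6-iKO and Ctr + 4-OHT lay above Ctr, and one Ctr + 4-OHT library, embryo SMH_129, lay above all others. On the log2 scale the fold change was 0.28 (SE 0.061, adjusted p = 0.0219) against Ctr and -0.10 (SE 0.089, adjusted p = 0.619) against Ctr + 4-OHT. Psat1, which acts just before it, stood at 352, 354 and 356 CPM in Ctr, 417, 430.1, 511 and 386 in Ctr + 4-OHT, and 350.0, 410.1, 352 and 375 in Smg6-iKO. Here Ctr + 4-OHT lay above Ctr, while Smg6-iKO overlapped with both. Its log2 fold change was -0.22 (SE 0.09, adjusted p = 0.251) against Ctr + 4-OHT, the lowest of the 43, and 0.069 (SE 0.064, adjusted p = 0.533) against Ctr. Phgdh, the first and committed enzyme, stood at 93.2, 76.4 and 88.2 CPM in Ctr, 84.9, 85.8, 102 and 80.8 in Ctr + 4-OHT, and 69.3, 85.04, 76.6 and 84.3 in Smg6-iKO. The groups overlapped, and the log2 fold change was -0.12 (SE 0.087, adjusted p = 0.395) against Ctr and -0.15 (SE 0.088, adjusted p = 0.415) against Ctr + 4-OHT.

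Of the mitochondrial one-carbon enzymes, Aldh1l2, which oxidises formyl-folate, stood at 171, 159 and 173 CPM in Ctr, 195, 225, 227 and 176 in Ctr + 4-OHT, and 224, 236, 205 and 219 in Smg6-iKO. It was higher in every Smg6-iKO and every Ctr + 4-OHT library than in Ctr, with log2 fold changes for Smg6-iKO of 0.40 (SE 0.062, adjusted p = 0.00560) against Ctr and 0.11 (SE 0.085, adjusted p = 0.550) against Ctr + 4-OHT. Mthfd2, the dehydrogenase of the same folate cycle, stood at 67.99, 60.2 and 67.5 CPM in Ctr, 76.4, 79.5, 86.1 and 67.4 in Ctr + 4-OHT, and 76.6, 77.8, 62.8 and 77.05 in Smg6-iKO, and Shmt2, which splits serine to feed it, at 186, 177 and 194 CPM in Ctr, 186, 219, 238 and 184 in Ctr + 4-OHT, and 188, 198, 206 and 218 in Smg6-iKO. Both overlapped between groups and were called with the embryo block only (Mthfd2 at 0.15, SE 0.052, adjusted p = 0.0475, Shmt2 at 0.16, SE 0.049, adjusted p = 0.0284). Cth, which makes cysteine from cystathionine, stood at 11.8, 8.66 and 8.95 CPM in Ctr, 13.6, 14.6, 16.3 and 10.3 in Ctr + 4-OHT, and 12.05, 16.1, 11.7 and 14.4 in Smg6-iKO. It was called with the block (0.52, SE 0.088, adjusted p = 0.000403) and missed the threshold in the edgeR test without it (0.47, SE 0.14, adjusted p = 0.0646), and its highest level was in Ctr + 4-OHT embryo SMH_129.

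Of the 8 transporters, 6 rose in Smg6-iKO against Ctr (Slc7a11, Slc7a5, Slc7a1, Slc7a3, Slc6a9 and Slc1a5), 7 with the embryo block, and none passed against Ctr + 4-OHT, where the median log2 fold change was 0.079. Beside these stood 4.27%, 10.3% and 0.757% of all genes called higher. Some transporters stood out. The carriers of cationic amino acids were among the transporters that rose against Ctr. Slc7a3, at 14.7 TPM the lower of that pair beside Slc7a1 at 46.7 TPM, stood at 13.7, 11.2 and 11.5 CPM in Ctr, 17.1, 22.5, 20.1 and 14.1 in Ctr + 4-OHT, and 23.2, 25.7, 18.7 and 20.1 in Smg6-iKO. Every library given 4-OHT lay above Ctr, and the 2 groups given 4-OHT overlapped, with Ctr + 4-OHT embryo SMH_131 lowest. The log2 fold change was 0.85 (SE 0.12, adjusted p = 0.00348) against Ctr, the highest of the 43, 0.26 (SE 0.15, adjusted p = 0.406) against Ctr + 4-OHT and 0.60 (SE 0.16, adjusted p = 0.296) for Ctr + 4-OHT against Ctr. Slc7a1 stood at 151, 131.7 and 149 CPM in Ctr, 142, 195, 203 and 173 in Ctr + 4-OHT, and 202, 180.3, 184 and 207 in Smg6-iKO. Smg6-iKO lay above Ctr, but Ctr + 4-OHT spread from the range of Ctr to that of Smg6-iKO, and the log2 fold change was 0.42 (SE 0.071, adjusted p = 0.00727) against Ctr and 0.12 (SE 0.11, adjusted p = 0.601) against Ctr + 4-OHT.

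Slc7a11, the cystine and glutamate exchanger, varied widely between cultures, at 14.5, 13.9 and 16.8 CPM in Ctr, 29.5, 18.4, 23.4 and 26.3 in Ctr + 4-OHT, and 37.7, 26.95, 17.5 and 25.2 in Smg6-iKO. Embryo SMH_127 was highest and embryo SMH_132 lowest of the Smg6-iKO libraries, and all libraries given 4-OHT lay above Ctr. Summed markers of mesenchyme and mural cells had the same order in Smg6-iKO, at 1267, 581, 238 and 475 CPM, and among Ctr + 4-OHT these sums and Slc7a11 were both higher in embryos SMH_125 and SMH_131 than in the other libraries. Their part in the result was not tested. By the edgeR test the log2 fold change was 0.84 (SE 0.20, adjusted p = 0.0315) against Ctr, 0.15 (SE 0.21, adjusted p = 0.770) against Ctr + 4-OHT and 0.69 (SE 0.15, adjusted p = 0.174) for Ctr + 4-OHT against Ctr, the highest of that comparison. Slc7a5, the light chain of the importer of large neutral amino acids, stood at 239.6, 207 and 234 CPM in Ctr, 252, 282, 289 and 235 in Ctr + 4-OHT, and 273, 262, 264 and 289 in Smg6-iKO. It lay above Ctr in Smg6-iKO by 0.26 (SE 0.065, adjusted p = 0.0331), but was called in 1 of the 7 fits that left out a library. Its partner chain Slc3a2 ranged from 249 to 344 CPM and was not called in any comparison, with a log2 fold change of 0.041 against Ctr.

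The carriers of small neutral amino acids and glycine followed. Slc1a5, which takes up glutamine, stood at 44.4, 39.99 and 43.5 CPM in Ctr, 52.9, 55.1, 58.7 and 49.7 in Ctr + 4-OHT, and 59.6, 58.9, 52.9 and 60.2 in Smg6-iKO. Each Smg6-iKO and each Ctr + 4-OHT library lay above Ctr, with a log2 fold change for Smg6-iKO of 0.44 (SE 0.067, adjusted p = 0.00461) against Ctr and 0.11 (SE 0.069, adjusted p = 0.468) against Ctr + 4-OHT. The related Slc1a4, which carries alanine and serine, stood at 198, 192 and 193 CPM in Ctr, 206, 202, 209.7 and 233 in Ctr + 4-OHT, and 214, 217, 206 and 225 in Smg6-iKO. Its levels in the 2 groups given 4-OHT also lay above Ctr, by little, and it was called with the block (0.15, SE 0.049, adjusted p = 0.0359) and, without a block, with upper-quartile factors, but not with TMM factors. Slc6a9, the glycine carrier GlyT1, stood at 59.9, 58.04 and 54.5 CPM in Ctr, 67.8, 84.1, 87.7 and 64.1 in Ctr + 4-OHT, and 64.3, 73.96, 79.6 and 75.3 in Smg6-iKO. It was higher than Ctr in every library given 4-OHT and highest in Ctr + 4-OHT embryo SMH_129, with log2 fold changes of 0.35 (SE 0.076, adjusted p = 0.0206) against Ctr and -0.04 (SE 0.11, adjusted p = 0.890) against Ctr + 4-OHT.

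Of the 8 effectors and feedback genes, Chac1, Trib3 and Ppp1r15a rose against Ctr and Ddit4 fell, and none passed against Ctr + 4-OHT. Against Ctr, 4.27% of all genes were called higher and 4.98% lower, and against Ctr + 4-OHT 0.757% were called higher. Trib3, a pseudokinase that restrains ATF4, stood at 12.3, 11.8 and 15.3 CPM in Ctr, 18.98, 19.1, 19.1 and 15.6 in Ctr + 4-OHT, and 22.1, 20.9, 21.02 and 24.3 in Smg6-iKO. The groups were ordered without overlap, with Ctr lowest and Smg6-iKO highest. In log2 terms the change was 0.75 (SE 0.10, adjusted p = 0.00300) against Ctr, 0.29 (SE 0.087, adjusted p = 0.136) against Ctr + 4-OHT and 0.47 (SE 0.12, adjusted p = 0.264) for Ctr + 4-OHT against Ctr. Chac1, which degrades glutathione, stood at 19.00, 16.2 and 21.96 CPM in Ctr, 24.5, 26.5, 27.01 and 20.03 in Ctr + 4-OHT, and 24.6, 25.9, 24.9 and 28.6 in Smg6-iKO. Smg6-iKO lay above Ctr and overlapped with Ctr + 4-OHT, and the log2 fold change was 0.45 (SE 0.10, adjusted p = 0.0222) against Ctr and 0.098 (SE 0.098, adjusted p = 0.666) against Ctr + 4-OHT.

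Ppp1r15a encodes GADD34, which brings a phosphatase to eIF2alpha and so ends the response. It stood at 39.2, 34.5 and 41.2 CPM in Ctr, 30.03, 44.96, 40.4 and 25.9 in Ctr + 4-OHT, and 44.2, 47.6, 45.9 and 44.1 in Smg6-iKO. Smg6-iKO lay above Ctr, and Ctr + 4-OHT was split, with embryos SMH_125 and SMH_131 below every other library and embryos SMH_126 and SMH_129 within the range of Smg6-iKO and Ctr. The fitted log2 fold change was 0.25 (SE 0.068, adjusted p = 0.0476) against Ctr and 0.37 (SE 0.15, adjusted p = 0.240) against Ctr + 4-OHT. Stc2, a secreted glycoprotein, stood at 69.4, 85.1 and 90.9 CPM in Ctr, 101, 107, 100.2 and 91.5 in Ctr + 4-OHT, and 102, 88.5, 99.1 and 109.6 in Smg6-iKO, and was called with the block (0.28, SE 0.049, adjusted p = 0.000580) but not in the edgeR test without it. Stc2 and Cth were also called without a block by DESeq2 on the groups compared and without a filter on low counts.

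Ddit4, which restrains mTORC1 and answers to many stresses besides, went the other way, at 792, 612 and 705 CPM in Ctr, 650.1, 632, 538 and 529.6 in Ctr + 4-OHT, and 522, 559, 504 and 515 in Smg6-iKO. Every Smg6-iKO library lay below every Ctr library, and Ctr + 4-OHT overlapped with both. Its log2 fold change was -0.42 (SE 0.081, adjusted p = 0.0127) against Ctr, -0.15 (SE 0.078, adjusted p = 0.363) against Ctr + 4-OHT and -0.26 (SE 0.11, adjusted p = 0.577) for Ctr + 4-OHT against Ctr. Sesn2, a leucine sensor that also acts on mTORC1, stood at 90.01, 79.97 and 85.1 CPM in Ctr, 66.2, 86.3, 95.01 and 62.2 in Ctr + 4-OHT, and 79.4, 87.7, 85.3 and 87.7 in Smg6-iKO. Its groups overlapped, again with Ctr + 4-OHT embryos SMH_125 and SMH_131 lowest, and it was not called in any comparison. Vldlr, a lipoprotein receptor, and Herpud1, a factor of protein disposal at the endoplasmic reticulum, were not called in any comparison either, at 338 to 418 CPM and 62.1 to 77.3 CPM.

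Of the 9 genes of tRNA charging and export, Xpot and Wars rose against Ctr, Gars and Cars joined them with the embryo block, and none passed against Ctr + 4-OHT. Beside these stood 4.27%, 10.3% and 0.757% of all genes called higher. Without the block, Cars was called with upper-quartile factors only. Gars was also called with those factors, without a filter, with at least 10 counts in every library, and by DESeq2 in both fits. Xpot, which exports tRNA from the nucleus, stood at 139.5, 142 and 149.7 CPM in Ctr, 164, 172, 185 and 161 in Ctr + 4-OHT, and 175, 179, 169 and 168 in Smg6-iKO. All libraries given 4-OHT lay above Ctr, and the log2 fold change was 0.27 (SE 0.052, adjusted p = 0.0137) against Ctr and 0.031 (SE 0.056, adjusted p = 0.830) against Ctr + 4-OHT. Wars, the tryptophan synthetase, stood at 70.4, 80.8 and 86.2 CPM in Ctr, 88.4, 83.9, 89.7 and 90.4 in Ctr + 4-OHT, and 99.7, 89.2, 97.6 and 106 in Smg6-iKO. Smg6-iKO lay above Ctr and overlapped with Ctr + 4-OHT, with log2 fold changes of 0.31 (SE 0.079, adjusted p = 0.0367) and 0.17 (SE 0.061, adjusted p = 0.207) in these comparisons.

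Gars, which charges glycine, stood at 245, 226 and 254 CPM in Ctr, 299, 293, 304 and 287 in Ctr + 4-OHT, and 289, 299, 257 and 291 in Smg6-iKO, and Cars, which charges cysteine, at 154, 137 and 146 CPM in Ctr, 157, 180.1, 175 and 147 in Ctr + 4-OHT, and 159, 169.7, 160.2 and 168 in Smg6-iKO. Every Smg6-iKO library lay above Ctr in both, and with the block their log2 fold changes were 0.22 (SE 0.049, adjusted p = 0.00348) and 0.19 (SE 0.048, adjusted p = 0.00804). For Gars every Ctr + 4-OHT library lay above Ctr as well, and the 2 groups given 4-OHT overlapped. The synthetases Aars, Sars, Nars, Eprs and Tars were not called in any comparison, with log2 fold changes against Ctr from -0.047 (Sars) to 0.097 (Nars). Aars shares 14.3% of its exonic bases with Exosc6, and reads there were counted for neither gene.

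Within embryos, the difference between the Smg6-iKO and the Ctr culture could be taken 3 times. It was above 0 in all 3 embryos for 32 of the 43 genes (74.4%), against 25.7% of 18102 genes tested, and below 0 in all 3 for Ddit4 and Vldlr. Of the 18102 genes, 4676 were higher in none of the 3. Atf4 was even, with differences of 0.44, 0.47 and 0.48 log2 CPM in embryos SMH_128, SMH_132 and SMH_133. Atf3 was uneven (0.86, 0.33 and 0.43), as was Slc7a11 (0.89, 0.32 and 0.58), while Slc7a3 (0.90, 0.74 and 0.80), Trib3 (0.76, 0.83 and 0.67) and Pck2 (0.72, 0.58 and 0.69) were high in each. Ddit3 differed in sign between embryos, at -0.14, 0.072 and -0.15.

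**Figure D3:**
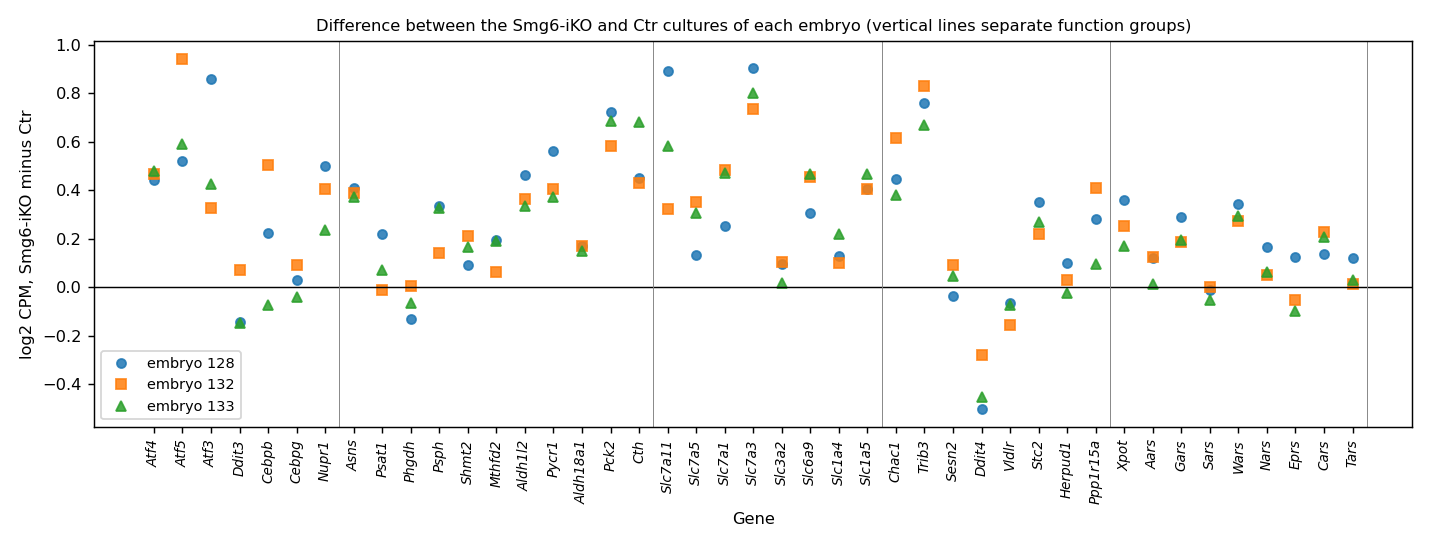
Difference in log2 CPM between the Smg6-iKO and the Ctr culture of the same embryo (y axis) for each gene (x axis), with one symbol for each of embryos SMH_128, SMH_132 and SMH_133. All 3 points lie above 0 for 32 genes and below 0 for Ddit4 and Vldlr, and the points of Atf4 lie between 0.44 and 0.48.

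The genes moved together between cultures of one group as well. Among Ctr, embryo SMH_132 was lowest in 33 of the 43 genes, and among Smg6-iKO, embryo SMH_128 was highest in 28, whereas over all 18102 genes these libraries were lowest in 31.9% and highest in 31.6%. Among Ctr + 4-OHT, embryo SMH_131 was lowest in 36 and embryo SMH_129 highest in 25, against 26.3% and 30.7% of all genes. As the mean over the 43 genes of log2 CPM minus the Ctr mean, Ctr libraries lay between -0.090 and 0.052, Ctr + 4-OHT between 0.029 and 0.33, and Smg6-iKO between 0.17 and 0.33. The regulators alone ranged from -0.15 to 0.26 in Ctr + 4-OHT and from 0.25 to 0.45 in Smg6-iKO. Synthesis genes ranged from 0.12 to 0.47 in Ctr + 4-OHT and from 0.17 to 0.37 in Smg6-iKO, the second range within the first.

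**Figure D4:**
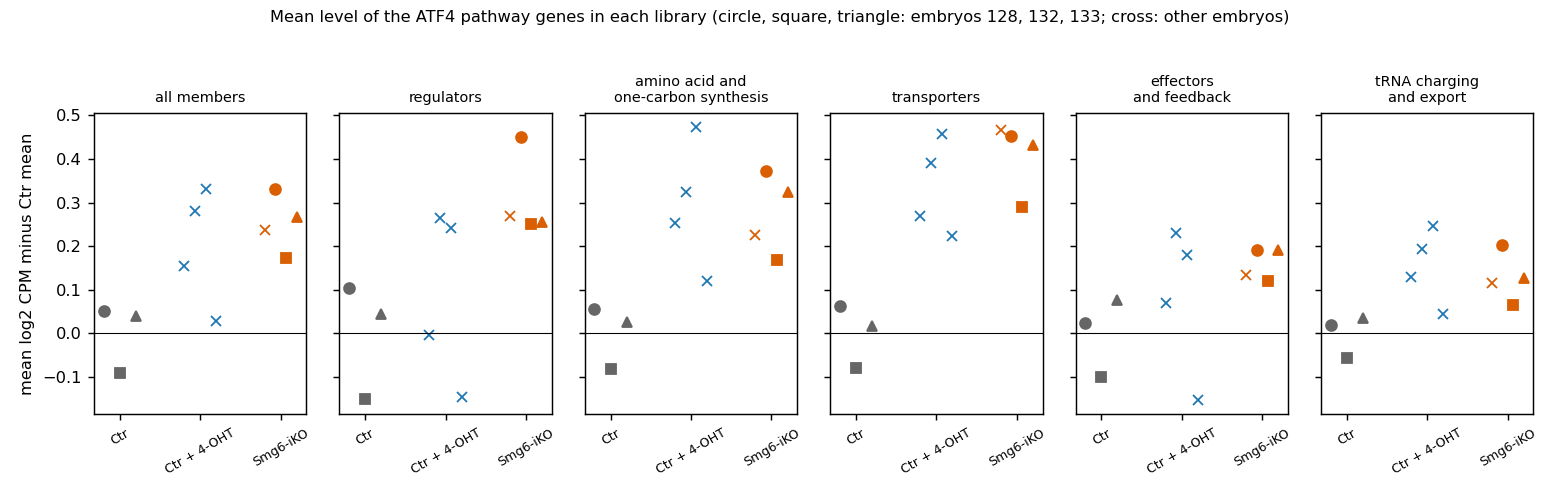
Mean over genes of log2 CPM minus the Ctr mean (y axis) for each library by group (x axis), for all 43 genes and for each function, with one symbol each for embryos SMH_128, SMH_132 and SMH_133. For all genes, Ctr + 4-OHT spreads from 0.029 to 0.33 and Smg6-iKO from 0.17 to 0.33, with Ctr at or under 0.052.

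Cell type markers differed between these libraries too. Summed NPC markers were at 6540 to 7069 CPM in Ctr, 5848 to 7209 CPM in Ctr + 4-OHT and 5554 to 6431 CPM in Smg6-iKO, and 7 of the 12 (Sox2, Sox1, Pax6, Fabp7, Hes5, Notch1 and Prom1) fell in Smg6-iKO against Ctr, with none called by edgeR in the other comparisons and Hes5 called lower by DESeq2 against Ctr + 4-OHT. Of 5 astrocyte markers Gfap rose against Ctr (log2 fold change 1.33), and their sums were at 594 to 696, 585 to 651 and 553 to 687 CPM in the same order of groups. Summed markers of the oligodendrocyte lineage were at 172 to 188, 174 to 254 and 159 to 201 CPM. The 7 neuron markers summed to 1790 to 1976 CPM in Ctr and 2094 to 2416 CPM in Smg6-iKO. None of them was called by edgeR, while DESeq2 on the groups compared called 5 of them (Tubb3, Dcx, Stmn2, Syt1 and Snap25) higher in Smg6-iKO than in Ctr, and 8 NPC markers lower, where it called 6.76% of all genes higher and 9.43% lower. On all libraries DESeq2 called 0 and 6 of these markers, with 3.77% of all genes higher and 6.6% lower. In Ctr + 4-OHT they summed to 2676 and 2491 CPM in embryos SMH_125 and SMH_131, the libraries with low Ddit3, Ppp1r15a and Sesn2, and to 1995 and 1644 CPM in embryos SMH_126 and SMH_129. The 6 markers of mesenchyme and mural cells summed to 613 and 731 CPM in embryos SMH_125 and SMH_131 and to 302 and 256 CPM in embryos SMH_126 and SMH_129, with 314 to 457 CPM in Ctr. Their part in the results was not tested.

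Of 65 other genes of the pathway, in 5 lists, 3 were higher and 1 lower in Smg6-iKO than in Ctr, near the background of 4.27% higher and 4.98% lower over all genes. None of 9 genes for eIF2 kinases and their partners was called by edgeR in any comparison. Against Ctr their log2 fold changes were -0.15 to 0.025 for Smg6-iKO, with 0 at an unadjusted p under 0.05, and in each comparison that involves Ctr + 4-OHT 1 gene had an unadjusted p under 0.05. Of 10 genes for eIF2, its exchange factor eIF2B and phosphatase subunits, none was called by edgeR without the block, and Eif2b4 fell with the embryo block (-0.19, adjusted p = 0.0326). It was the 1 gene of the 10 called lower there, beside 11.2% of all genes. Of 12 other cytosolic synthetases, Lars (leucine) rose against Ctr, at 153, 169 and 177 CPM in Ctr, 193, 186, 211 and 198 in Ctr + 4-OHT, and 216, 226, 203 and 227 in Smg6-iKO. Smg6-iKO lay above Ctr without overlap (log2 fold change 0.39, SE 0.066, adjusted p = 0.00770), and Ctr + 4-OHT lay above Ctr as well. With the block Mars rose and Kars and Qars fell. That made 2 of the 12 higher and 2 lower, beside 10.3% and 11.2% of all genes. Of 17 mitochondrial synthetases, Yars2 rose against Ctr (0.33, adjusted p = 0.0226), joined by Ears2 with the block, which made 2 of the 17 beside 10.3% of all genes.

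Of 17 other ATF4 targets and partners, Mthfd1l rose and Gpt2 fell against Ctr. Mthfd1l, which releases formate from the mitochondrial folate cycle, stood at 59.8, 70.03 and 70.3 CPM in Ctr, 71.98, 82.5, 88.1 and 84.1 in Ctr + 4-OHT, and 85.02, 90.6, 84.9 and 84.5 in Smg6-iKO. Every library given 4-OHT lay above Ctr (log2 fold change 0.37 for Smg6-iKO, SE 0.068, adjusted p = 0.0102). Gpt2, an alanine transaminase, stood at 261, 277 and 257 CPM in Ctr, 204, 225, 267 and 196 in Ctr + 4-OHT, and 173, 202, 198 and 191 in Smg6-iKO. All Smg6-iKO libraries lay below Ctr (-0.47, SE 0.064, adjusted p = 0.00300). With the block Eif4ebp1, Slc38a2, Gdf15 and Jdp2 rose too. That made 5 of the 17 higher and 1 lower, where the blocked fit called 10.3% of all genes higher and 11.2% lower. In the comparisons that involve Ctr + 4-OHT, edgeR called no gene of these 5 lists, with 9 of the 65 genes at an unadjusted p under 0.05 for Smg6-iKO against Ctr + 4-OHT and 11 for Ctr + 4-OHT against Ctr, beside 16.7% and 8.28% of all genes. DESeq2 on all libraries called Ppp1ca and Farsb lower in the first, and Impact lower and Lars and Mthfd1l higher in the second. In either direction it called 1124 of 15387 genes in the first and 238 of 16091 in the second.

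Split by promoter, the 14 genes with the element held 7 that were higher in Smg6-iKO than in Ctr, with a median log2 fold change of 0.35. The 21 genes with a window and no element held 7 higher and 1 lower, with a median of 0.15, and the 8 genes with no window held 5 higher, with a median of 0.35. With the embryo block the counts higher were 10, 11 and 7. Atf4 and Atf5 were in the part with no element in the window, as were Ddit3 and Ddit4. For Ctr + 4-OHT against Ctr the medians were 0.29 with the element and 0.15 without it, with 0.26 where no window was used. For Smg6-iKO against Ctr + 4-OHT they were 0.064, -0.021 and 0.079 in the same order. The 1 gene called there, Atf4, was in the part with no element. These splits are descriptions of a chosen list and carry no test.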

How the data were processed

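Total RNA of NPC cultures was sequenced in 11 libraries, and groups were taken from the sample labels. The authors deposited raw counts per gene and library, with no normalization, over 53801 Ensembl identifiers. Per the labels and the submitters' processing notes, reads were demultiplexed with bcl2fastq 1.8.4, mapped with STAR 2.5.4b and counted with featureCounts 1.5.0 on Ensembl release 92. Reads shared by overlapping genes count for neither.

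The 43 genes, their function groups and all other lists were chosen with earlier results of these data known. All 43 could be named. Values in each library were given for genes called in any comparison with or without the embryo block, for Ddit3, and for the 3 highest and 3 lowest fold changes of each comparison. Symbols came from GENCODE M21, and 53620 identifiers had one.

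The 3 pairs of groups were fitted separately with edgeR 4.0.16 in R 4.3.3 (filterByExpr, TMM, quasi-likelihood test), with Benjamini-Hochberg adjustment over all genes tested and a threshold of 0.05. A gene is called where its adjusted p is under it. CPM used TMM factors over the 11 libraries, log2 CPM a prior count of 2, and TPM the exonic length. Replicates were embryos, and no 2 libraries of a group were alike within counting noise. Embryos SMH_128, SMH_132 and SMH_133 each gave a Ctr and a Smg6-iKO culture, whose deviations from their group means correlated at 0.33, 0.40 and 0.42, against -0.26 to 0.089 between other embryos, so the embryo was used as a block. Total counts of 26418249 to 33756875 set the counting error. The alternatives were other scalings and filters, DESeq2 1.42.0, one fit over all libraries, a gene length correction (loess span 0.3), the block, and each library left out. The fits were tested on simulated data.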

Additional observations from a re-analysis of the deposited data

Results flagged for a closer look

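In 86 sets of 4 libraries (each of the 43 genes in Ctr + 4-OHT and in Smg6-iKO), 4 held a library that stood apart from the other 3 by Dixon's criterion. Chance gives such a library in about 1 of 20 sets, or 5%. Groups of 3 were not examined.

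In Ctr + 4-OHT, Psph was highest in embryo SMH_129 at 65.0 CPM, with the others at 49.5 to 52.0 CPM. Trib3 was lowest in embryo SMH_131 at 15.6 CPM, with the others at 19.0 to 19.1 CPM. In Smg6-iKO, Mthfd2 was lowest in embryo SMH_132 at 62.8 CPM, with the others at 76.6 to 77.8 CPM. Eprs was highest in embryo SMH_128 at 643 CPM, with the others at 565 to 575 CPM.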

How the results depend on the processing

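For Smg6-iKO against Ctr + 4-OHT, the count of 1 called gene became 2 with DESeq2 on the groups compared and 2 on all libraries, 0 with the gene length correction, and 0 to 1 with each library left out. In the last case the gene called without Ctr + 4-OHT embryo SMH_126 was Atf5, not Atf4. Over all genes, 206 were called, against 880 and 1124 with DESeq2. For Smg6-iKO against Ctr, 20 called genes became 9 to 20 with each library left out, and the median log2 fold change 0.17 to 0.28. The fewest were found without Ctr embryo SMH_132 (9), Ctr embryo SMH_128 (11) and Smg6-iKO embryo SMH_133 (11). With embryo pairing as a block 29 were called (28 higher), and 27 with the block and the length correction. One fit over all libraries called 15 of the 43 and no filter 23. Over all genes the block gave 3854 calls against 1663 without it, one fit over all libraries 796 and no filter 2714. For Ctr + 4-OHT against Ctr, 0 calls became 7 without a filter and 6 or 9 with DESeq2, where all genes gave 39, 198, 168 and 238. Ddit3 against Ctr, at -0.11, ranged from -0.20 to 0.019 with each library left out, the last without Ctr embryo SMH_128. The other single-gene fold changes recomputed kept their direction under every alternative run. The median over the 43 genes for Smg6-iKO against Ctr + 4-OHT, 0.0086, lay near 0 and took either sign (-0.037 without Ctr + 4-OHT embryo SMH_131), as did that of the effectors and feedback genes (0.053, and -0.015 without the same embryo). Depth limits genes with few reads, of which Atf3 had 100 to 201 counts per library. The causes of these changes were not tested.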
